A study of Salmo salar with 13 samples.

Results

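The response of the saccus vasculosus to seawater was compared between 2 photoperiod histories in Atlantic salmon, with the contrast (SPLL SW minus SPLL FW) minus (SP-hold SW minus SP-hold FW), here called the interaction. All 13 RNA sequencing libraries of the series entered it, 4 from SPLL SW, 2 from SPLL FW, 3 from SP-hold SW and 4 from SP-hold FW. SPLL fish had 8 weeks of short photoperiod and then 8 weeks of constant light. SP-hold fish stayed on short photoperiod for 16 weeks. SW fish were sampled after 24 h in full-strength seawater and FW fish in freshwater. All fish came from a commercial Aquagen strain, their sex was not determined, and they were kept in duplicate tanks, with no label that ties a library to its tank. Constant light was kept over the seawater tank. SP-hold fish thus met a change of light together with that of salinity, and these cannot be told apart. The labels call the samples biological replicates and say no more of them, and p-values measure the spread between them. Tank could not be a term of the test, so fish that shared a tank count as independent.

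The saccus vasculosus is a vascular organ on the floor of the fish hypothalamus. Its coronet cells face the third ventricle and carry globular cilia, and the organ has been described as a sensor of day length in a salmonid. Juvenile salmon need a winter of short days followed by long days to become smolts, the form that tolerates seawater, and fish kept on short days enter seawater unprepared. A transcript with a positive interaction was changed more upwards, or less downwards, by seawater in SPLL fish than in SP-hold fish, and a negative interaction is the opposite.

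The markers of the organ were present in every library. The list held ependymins, parvalbumin and other markers of the organ and its coronet cells. It summed to 7.56 to 11.0% of TPM (length-scaled transcript abundance) in SPLL SW and 9.39 and 11.5% in SPLL FW. In SP-hold it summed to 6.34 to 9.10% in SW and 6.15 to 9.11% in FW. Reads assigned to transcripts numbered 22239063 to 24001266 in SPLL SW, 22401045 and 24840759 in SPLL FW, 21925327 to 26502552 in SP-hold SW and 15346418 to 22430760 in SP-hold FW. The fewest transcripts, 54196, had reads in SPLL SW replicate 3, and the range over the other 12 libraries was 62912 to 70193. The 18 erythrocyte marker transcripts summed to 4.64 to 11.4% of TPM in SPLL SW, with the highest value in that same replicate, 2.82 and 5.86% in SPLL FW, 2.80 to 4.06% in SP-hold SW and 3.91 to 5.49% in SP-hold FW. Their interaction was positive for 16 of 18, with a median of 1.41 on the log2 scale, and none passed the test in edgeR (4 were positive and 1 negative at an unadjusted p under 0.05, and DESeq2 called 1 lower). Muscle markers (7 transcripts) summed to 0.0457 to 0.0799% of TPM in SPLL SW, 0.0529 and 0.0534% in SPLL FW, 0.0746 to 0.11% in SP-hold SW and 0.053 to 0.0713% in SP-hold FW, so that SP-hold SW was above SP-hold FW in every library. Their median interaction was -0.63 with 5 of 7 negative, and 0.14 over the 4 outside the study's clusters. None passed in edgeR (1 was positive and 4 negative at an unadjusted p under 0.05, and 3 were called lower in DESeq2 and 1 in limma-voom). The macrophage list matched 4 of its 6 symbols (apoeb, ctsk, cd74a and the C1q-like C1QL4) but not mpeg1 or csf1ra, so it is a weak measure of these cells. Its 5 transcripts summed to 0.248 to 0.393% in SPLL SW, 0.38 and 0.431% in SPLL FW, 0.342 to 0.374% in SP-hold SW and 0.192 to 0.331% in SP-hold FW. All 5 had a negative interaction, with a median of -0.47, and none passed in edgeR, DESeq2 or limma-voom (2 were negative at an unadjusted p under 0.05). The part of these markers in the calls was not tested. Fewer cells of a type and less RNA per cell cannot be told apart in such bulk tissue.

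The change in seawater differed between SPLL and SP-hold for 105 of the 46384 transcripts tested (0.226%), with a positive interaction for 68 (0.147%) and a negative interaction for 37 (0.0798%). These passed a false discovery rate (FDR) of 0.05 in edgeR's quasi-likelihood test with Benjamini-Hochberg adjustment, the adjusted p of every value below. At an unadjusted p under 0.05 the interaction passed for 5426 transcripts (11.7%), 6.67% of all tested upwards and 5.03% downwards. The newer quasi-likelihood method of edgeR's version 4 called 24 transcripts, of which 22 were among the 105, and the choice between these 2 methods was made after both counts had been seen. DESeq2 called 2092, which held all 105. Leaving out SPLL SW replicate 1 gave 62 calls, SP-hold FW replicate 2 gave 66, SPLL SW replicate 2 gave 159, SPLL FW replicate 1 gave 299 and SPLL FW replicate 2 gave 252. Leaving out SPLL SW replicate 3 gave 292, with all 105 among them. Without either SPLL FW library that group holds 1 sample, which is then assumed to vary like the other groups. Between 47.8% (without SPLL SW replicate 2) and 90.6% (without SPLL FW replicate 1) of the calls were then positive.

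The 105 calls fell into 2 kinds. In 58, every group had reads, and their interaction was positive in 32 and negative in 26. The other 47 had no read in any library of at least 1 group, 36 of them with a positive and 11 with a negative interaction. Among these, SPLL FW was empty for 26, SP-hold SW for 12, SPLL SW for 7 and SP-hold FW for 4. Over all tested transcripts, 821 were empty in SPLL FW, 204 in SP-hold SW, 81 in SPLL SW and 45 in SP-hold FW, and SPLL FW had the fewest libraries. Names were at hand for 33 of the 105 calls, 31 with reads in every group. They came from a part of the study's tables that held mainly abundant transcripts and those of its own clusters. A call without a name here may thus be named in the full tables. All but Srsf11 and bzw2 of these 33 belong to clusters that the study chose on these libraries, so that their calls are no independent evidence.

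Few transcripts had both seawater effects past the threshold, so few could be sorted as reversed. Both effects passed FDR 0.05 with opposite signs in 2 of the 105 calls. Over all 46384 tested transcripts, both passed with opposite signs in 2 and with the same sign in 4. A seawater effect was called for 125 transcripts in SPLL (0.269%) and 39 in SP-hold (0.0841%). A response was gained in SPLL, with a call there and none in SP-hold, by 64 transcripts, and lost in SPLL by 17. Neither effect passed on its own in 22, and none of the 105 was called in both with the same sign. With an unadjusted p under 0.05 for each seawater effect (10.5% of tested transcripts in SPLL, 9.59% in SP-hold), 43 of the 105 were reversed, 44 gained, 14 lost and 4 changed in size only. Over all tested transcripts, both effects passed that p with opposite signs in 390 and with the same sign in 345. The seawater effects are parts of the interaction, so the counts among the 105 describe the calls and are no further test of them.

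**Figure D1:**
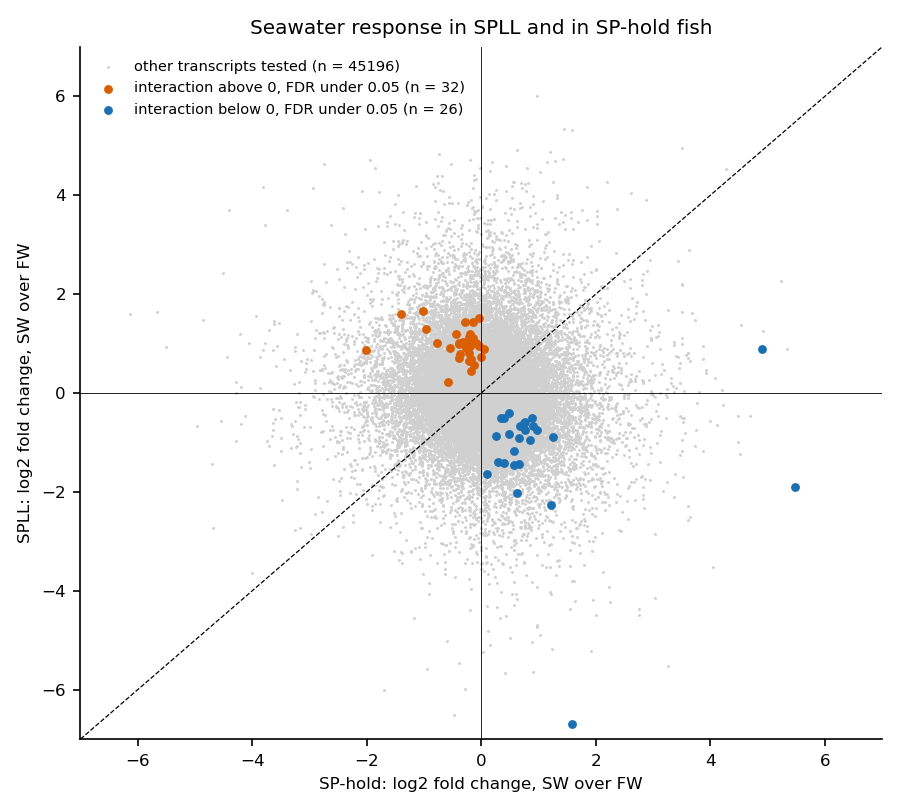
Seawater effect in SPLL (SPLL SW over SPLL FW, vertical, log2) against that in SP-hold (SP-hold SW over SP-hold FW, horizontal, log2) for 45254 tested transcripts with reads in every group, 2 of them outside the axes, with the dashed line marking equal effects. The 32 calls with a positive interaction lie above the line and the 26 with a negative interaction below it, most with effects of opposite sign.

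Among the 58 calls with reads in every group, the 2 seawater effects mostly had opposite signs. The median effect was larger in size in SPLL, but some negative calls, such as sema6d and npnta, had the larger effect in SP-hold. Selection for a large interaction favours opposite signs, so their share describes the calls and is no separate result. The 32 positive calls had a median seawater effect of 1.00 in SPLL and -0.27 in SP-hold, with opposite signs in 31. The 26 negative calls had medians of -0.88 in SPLL and 0.66 in SP-hold, with opposite signs in 25. Over all tested transcripts the signs were opposite in 24602 of 46384. The seawater effect passed in SPLL for 25 of the 32 and 9 of the 26, and in SP-hold for 2 and 2.

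The group that stood farthest from the mean of the others describes each call further. The sign of the interaction fixes on which side each group can stand, so only the split among the groups is of note. In the positive calls it was SPLL FW, on the low side, for 21 of 32, SPLL SW on the high side for 9 and SP-hold SW on the low side for 2. In the negative calls it was SPLL SW, on the low side, for 14 of 26 and SP-hold SW on the high side for 8. It was SPLL FW on the high side for 2 and SP-hold FW on the low side for 2. Over all 46384 tested transcripts, SPLL FW stood farthest on the low side for 7631 and on the high side for 5516. For SPLL SW these counts were 8153 and 3707, for SP-hold SW 8404 and 6612, and for SP-hold FW 3883 and 2478. The mean of SPLL FW rests on only 2 libraries, and the part of this in the split was not tested. The photoperiod difference within seawater passed for 21 of the 32 and 24 of the 26 (3.04% of all tested), and that within freshwater for 8 of the 32 (0.0905% of all tested). These contrasts are parts of the interaction too.

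hnrnpa1a was the named gain with the lowest p. The gene (chromosome 15, 92946894 to 92952024 of the RefSeq annotation of Ssal_v3.1) encodes an hnRNP protein that steers splice site choice. It rose in seawater in SPLL, and the direction in SP-hold was the opposite without passing the test. Its read counts scaled to library size (CPM) were 144, 139, 128 and 158 in SPLL SW, against 63.3 and 60.1 in SPLL FW, and 77.5, 96.3 and 93.6 in SP-hold SW, against 122, 124, 131 and 108 in SP-hold FW. Neither pair overlapped, and the 2 SPLL FW libraries were the lowest of all. The interaction was 1.65 ± 0.16 (log2, SE; adjusted p = 0.00554).

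tardbpb (chromosome 22, 11528362 to 11534471), for the nuclear RNA-binding protein TDP-43, had the same shape. Its CPM were 124, 120, 107 and 121 in SPLL SW, against 72.9 and 72.5 in SPLL FW. In SP-hold it had 87.3, 81.6 and 92.8 in SW, against 119, 118, 112 and 106 in FW. SPLL FW was again lowest, and both pairs were apart. The interaction was 1.08 ± 0.12 (adjusted p = 0.00723), the effect in SPLL was 0.70 (adjusted p = 0.017) and that in SP-hold was -0.38 (adjusted p = 0.169). Srsf11, a serine/arginine-rich splicing factor, had a smaller interaction of 0.63 ± 0.10 (adjusted p = 0.0422), with 88.6, 90.5, 89.7 and 82.6 CPM in SPLL SW, against 64.2 and 64.3 in SPLL FW, and 70.1, 71.0 and 69.1 in SP-hold SW, against 84.7, 79.1, 80.3 and 73.7 in SP-hold FW.

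zswim8, Tnrc6b and ZC3H4 had a negative interaction, and neither seawater effect passed for any of them. zswim8 (chromosome 1, 60405813 to 60453482) encodes the substrate receptor of a ubiquitin ligase that in mammals and flies directs the decay of microRNAs. Its CPM were 22.6, 27.8, 22.7 and 20.9 in SPLL SW, against 36.3 and 38.6 in SPLL FW, and 73.2, 57.0 and 58.5 in SP-hold SW, against 42.9, 39.4, 33.3 and 42.5 in SP-hold FW. The pairs moved apart in opposite directions, with SP-hold SW highest and SPLL SW lowest. The interaction was -1.34 ± 0.20 (adjusted p = 0.0298), from seawater effects that did not pass (-0.67, adjusted p = 0.113, in SPLL and 0.67, adjusted p = 0.153, in SP-hold). Tnrc6b, a scaffold of microRNA silencing, had an interaction of -1.30 (adjusted p = 0.0481). ZC3H4, a zinc finger protein that in human cells ends unproductive transcription, had one of -1.71 (adjusted p = 0.0473). Of the 64 listed RNA binding and splicing transcripts, 3 passed upwards (0.147% of all tested) and 2 downwards (0.0798%). The median interaction was -0.16 with 39 of 64 negative, and -0.06 over the 36 outside the study's clusters. Of 22 listed ubiquitin ligases and deubiquitinases, 2 passed downwards, zswim8 and spata2 (-0.89, adjusted p = 0.0408), and none upwards in edgeR (10 negative and 3 positive at an unadjusted p under 0.05, and DESeq2 and limma-voom each called 2 upwards). Their median interaction was -0.41, and 0.25 over the 9 outside the study's clusters.

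Chromatin regulators were called in both directions. brd2a (chromosome 14, 64524776 to 64537360), a bromodomain reader of acetylated histones, had 33.7, 26.3, 25.7 and 28.0 CPM in SPLL SW, against 15.7 and 14.4 in SPLL FW. In SP-hold it had 18.2, 20.6 and 18.9 in SW, against 32.2, 25.4, 24.9 and 29.6 in FW. Neither pair overlapped, and SPLL FW was lowest. The interaction was 1.46 ± 0.20 (adjusted p = 0.0198). chd2 (chromosome 16, 28787298 to 28819193), a chromatin remodeller, had 102, 98.0, 80.5 and 91.7 CPM in SPLL SW, against 49.8 and 57.4 in SPLL FW, and 67.8, 73.3 and 71.9 in SP-hold SW, against 83.8, 83.6, 83.0 and 77.2 in SP-hold FW, with an interaction of 1.00 ± 0.14 (adjusted p = 0.0251).

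KMT2E (chromosome 17, 63813925 to 63849977), a PHD and SET domain protein that binds methylated histone H3, had an interaction of the opposite sign to brd2a and chd2. Its CPM were 12.1, 17.7, 14.0 and 16.2 in SPLL SW, against 27.5 and 22.7 in SPLL FW, and 61.7, 44.3 and 49.3 in SP-hold SW, against 35.0, 30.6, 28.8 and 26.9 in SP-hold FW. SP-hold SW was highest, SPLL SW lowest, and no pair overlapped. The interaction was -1.51 ± 0.24 (adjusted p = 0.0415). Neither seawater effect passed (-0.74, adjusted p = 0.145, in SPLL and 0.77, adjusted p = 0.17, in SP-hold). Of 30 listed chromatin and transcription coregulators, 2 passed upwards (0.147% of all tested) and 1 downwards (0.0798%). At an unadjusted p under 0.05, 4 of them were positive and 14 negative, against 6.67% and 5.03% of all tested. Their median interaction was -0.61 with 23 of 30 negative, from a median seawater effect of -0.06 in SPLL and 0.58 in SP-hold. All but 3 of them come from the study's clusters, and the 3 outside had a median of 0.13, so the list's direction is not independent evidence.

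**Figure D2:**
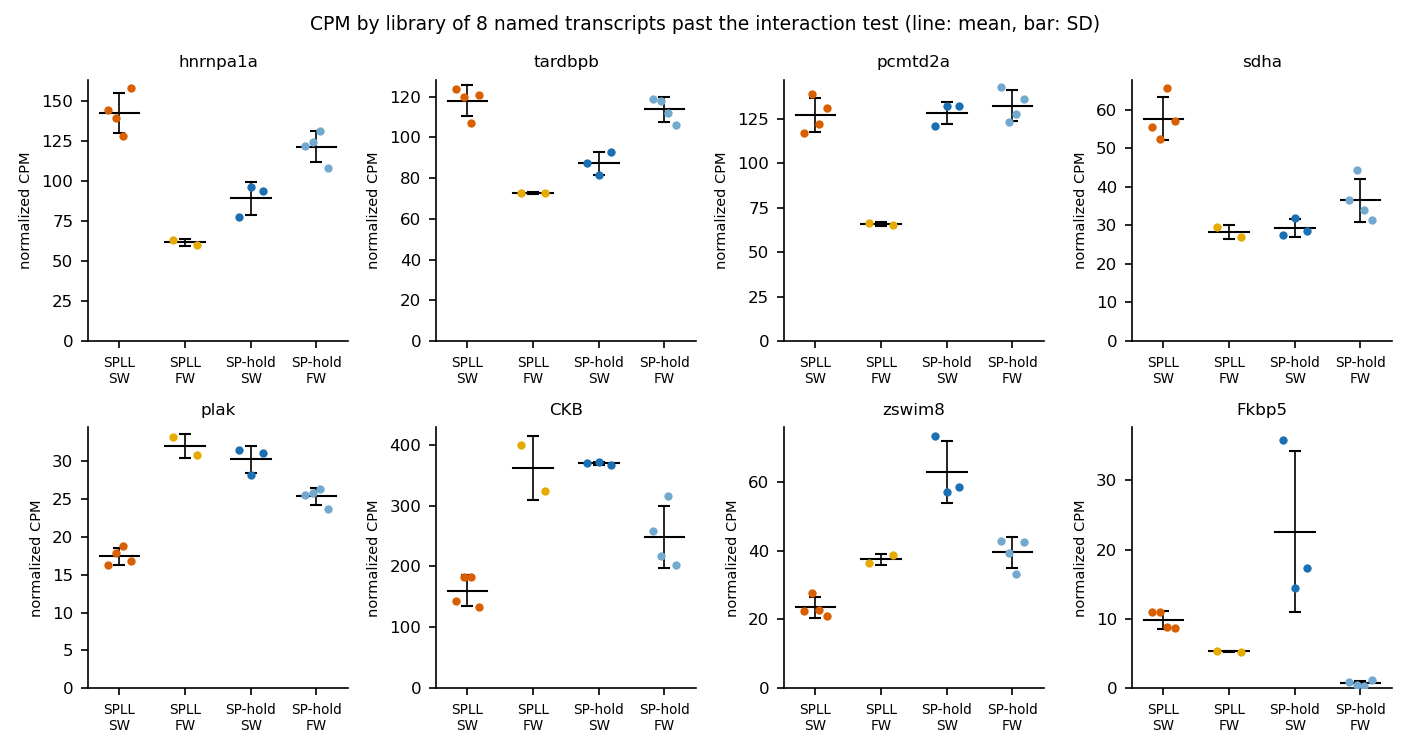
CPM in each library (vertical axis, linear from 0) of 8 called transcripts by group, in the order SPLL SW, SPLL FW, SP-hold SW, SP-hold FW, with points for libraries, lines for group means and error bars for the SD. In hnrnpa1a, tardbpb and pcmtd2a the 2 SPLL FW points are lowest, in sdha SPLL SW is highest, in plak, CKB and zswim8 SPLL SW is lowest, and in Fkbp5 SP-hold SW is highest and SP-hold FW lowest.

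The gains pwp1, bzw2 and gpn2 also had SPLL FW as the lowest group. pwp1, for a WD-repeat protein linked to ribosomal RNA synthesis in mammals, had 19.2, 19.0, 15.9 and 17.7 CPM in SPLL SW, against 7.86 and 7.78 in SPLL FW, and 12.6, 14.2 and 12.7 in SP-hold SW, against 14.9, 16.1, 15.7 and 13.5 in SP-hold FW. Only the SPLL pair was apart, and the interaction was 1.39 ± 0.17 (adjusted p = 0.0135). It was the 1 call among 13 ribosome biogenesis transcripts (0.147% of all tested passed upwards). At an unadjusted p under 0.05, 4 of the 13 were positive and 0 negative, against 6.67% and 5.03% of all tested. Among the 8 members outside the study's clusters 0 passed at that p, and their median interaction was 0.08. bzw2, for a mimic of a translation initiation factor, had 224, 275, 267 and 230 CPM in SPLL SW, against 126 and 138 in SPLL FW, and 145, 204 and 146 in SP-hold SW, against 207, 193, 196 and 202 in SP-hold FW. Its interaction was 1.19 (adjusted p = 0.0481), while the second transcript of the gene had 0.28 (adjusted p = 0.808). gpn2 (chromosome 5, 48037531 to 48052412), of a GTPase family that helps to assemble RNA polymerases, had 40.5, 43.0, 33.3 and 40.8 CPM in SPLL SW, against 18.4 and 17.7 in SPLL FW, and 34.0, 29.5 and 31.6 in SP-hold SW, against 41.8, 33.2, 32.3 and 39.4 in SP-hold FW. SPLL FW alone was low, and the interaction was 1.34 (adjusted p = 0.0233).

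pcmtd2a (chromosome 15, 69808203 to 69816421), for a protein with an isoaspartyl methyltransferase domain, was the plainest case of SPLL FW alone being low. It had 117, 139, 122 and 131 CPM in SPLL SW, against 66.7 and 65.3 in SPLL FW, and 121, 132 and 132 in SP-hold SW, against 143, 123, 128 and 136 in SP-hold FW. The interaction was 0.99 ± 0.13 (adjusted p = 0.0159), the photoperiod difference was -1.0 in freshwater (adjusted p = 0.00505) and -0.01 in seawater (adjusted p = 0.973).

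sdha (chromosome 2, 6282025 to 6292301), the flavoprotein of succinate dehydrogenase in the citric acid cycle and respiratory chain, was highest in SPLL SW. It had 55.4, 52.5, 65.7 and 57.1 CPM in SPLL SW, against 29.5 and 26.9 in SPLL FW, and 27.5, 31.8 and 28.5 in SP-hold SW, against 36.6, 44.3, 33.9 and 31.4 in SP-hold FW. All 4 SPLL SW libraries were above the other 9. The interaction was 1.35 (adjusted p = 0.0286), the effect was 1.03 in SPLL (adjusted p = 0.0224) and -0.32 in SP-hold (adjusted p = 0.442). RefSeq annotates the sdha gene at this place as a transcribed pseudogene and the gpn2 gene as a pseudogene. Salmon genes often have near-identical copies from a genome duplication, between which the assignment of reads is uncertain.

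sdha was the only call among 57 respiratory chain and ATP synthase transcripts (0.147% of all tested passed upwards). At an unadjusted p under 0.05, 3 of the 57 were positive and 0 negative, against 6.67% and 5.03% of all tested. Among the 56 outside the study's clusters, 2 were positive at that p. The interaction was positive in 50 of the 57. Its median was 0.50, against 0.043 over all tested transcripts and 0.161 over the 988 that were named for abundance outside the clusters. The median ran from 0.10 to 0.64 over all settings. No ribosomal protein transcript was called among 162 in edgeR (9 positive and 2 negative at an unadjusted p under 0.05), while DESeq2 called 1 higher and limma-voom with library weights 2 lower. Their median interaction was 0.40, with 126 of 162 positive, from a seawater effect of -0.08 in SPLL and -0.47 in SP-hold, and it was 0.02 in limma-voom. The median interaction of all tested transcripts was also higher in short ones, 0.24 up to a length of 1000 bp. With an offset for effective length the median was 0.46 for both lists.

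Both plakoglobin genes that were named, plak and JUP, were lowest in SPLL SW. plak (chromosome 2, 56686919 to 56717415) encodes junction plakoglobin, which ties cadherins to the cytoskeleton. It had 16.3, 17.9, 18.8 and 16.8 CPM in SPLL SW, against 33.1 and 30.8 in SPLL FW, and 31.5, 28.2 and 31.0 in SP-hold SW, against 25.5, 25.8, 26.3 and 23.7 in SP-hold FW. The 4 SPLL SW libraries were the lowest of all, and both pairs were apart in opposite directions. The interaction was -1.13 ± 0.13 (adjusted p = 0.00723), from -0.87 in SPLL (adjusted p = 0.00645) and 0.26 in SP-hold (adjusted p = 0.331).

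JUP, a separate plakoglobin gene on chromosome 3, had the same shape at a lower level. It had 2.50, 3.54, 3.98 and 4.11 CPM in SPLL SW, against 9.57 and 9.35 in SPLL FW, and 9.21, 9.25 and 10.0 in SP-hold SW, against 6.52, 7.50, 7.42 and 7.39 in SP-hold FW, with an interaction of -1.82 ± 0.28 (adjusted p = 0.0387). Dact3 (chromosome 4, 72429085 to 72494303), which binds Dishevelled and restrains Wnt signalling in mammals, had 2.64, 3.05, 3.07 and 2.88 CPM in SPLL SW, against 10.2 and 7.97 in SPLL FW, and 7.95, 8.94 and 7.26 in SP-hold SW, against 7.16, 7.41, 8.81 and 6.60 in SP-hold FW. SPLL SW alone was low, and the interaction was -1.75 ± 0.27 (adjusted p = 0.0354). Of 21 listed cytoskeleton and junction transcripts, 2 passed downwards and none upwards in edgeR (9 and 0 at an unadjusted p under 0.05, with 6 called downwards in DESeq2 and 3 in limma-voom), against 0.0798% of all tested downwards by the adjusted and 5.03% by the unadjusted p. The median interaction was -0.38, and 0.10 over the 9 members outside the study's clusters, of which 5 were positive, so the list's direction is not independent evidence.

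Energy and secreted factors gave further calls. CKB (chromosome 15, 25570959 to 25577487), the brain creatine kinase that buffers ATP, had 143, 182, 182 and 134 CPM in SPLL SW, against 361 ± 53.0 (SD, n = 2) in SPLL FW, and 370, 372 and 367 in SP-hold SW, against 258, 218, 315 and 202 in SP-hold FW. SPLL SW was lowest throughout, and the SP-hold SW libraries were above those of SP-hold FW. The interaction was -1.75 ± 0.25 (adjusted p = 0.028), and the second CKB transcript had -0.59 (adjusted p = 0.484).

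The C1q-like transcript si:dkey-5n18.1 (ENSSSAT00000021713), matched to mouse C1ql1, a secreted organizer of synapses, had an interaction of -1.70 ± 0.25 (adjusted p = 0.0319). A second transcript of that name (ENSSSAT00000185648) had -1.05 (adjusted p = 0.254). npnta, for nephronectin, an integrin ligand of the extracellular matrix, had 4.23, 4.68, 4.95 and 4.07 CPM in SPLL SW, against 6.71 and 7.45 in SPLL FW, and 14.7, 11.1 and 12.6 in SP-hold SW, against 7.93, 6.77, 6.75 and 5.81 in SP-hold FW. Its interaction was -1.57 (adjusted p = 0.0431), with SP-hold SW apart on the high side. sema6d, a transmembrane semaphorin of axon guidance, had an interaction of -1.40 (adjusted p = 0.0415) and the same order of groups.

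Other secreted factors were highest in SPLL SW. TAFA3, a chemokine-like protein of the nervous system, had 58.5, 54.6, 60.7 and 54.8 CPM in SPLL SW, against 26.0 and 30.6 in SPLL FW, and 31.7, 31.7 and 41.4 in SP-hold SW, against 42.1, 41.5, 50.2 and 38.9 in SP-hold FW. The interaction was 1.32 ± 0.19 (adjusted p = 0.0291). Vegfb, a member of the vascular endothelial growth factor family, had 67.6, 63.2, 59.8 and 61.7 CPM in SPLL SW, against 36.3 and 40.1 in SPLL FW, and 44.6, 42.2 and 47.0 in SP-hold SW, against 42.4, 45.2, 47.1 and 44.5 in SP-hold FW. SPLL SW alone was high. The interaction was 0.73 (adjusted p = 0.0408), and the seawater effect in SP-hold was -0.01 ± 0.08. Of 28 listed extracellular matrix and secreted factors, 3 passed upwards (0.147% of all tested) and 2 downwards (0.0798%), and the median interaction was -0.33. The upward calls were TAFA3, Vegfb and the enzyme ndst1b, which had no read in SP-hold SW. None of the 12 members outside the study's clusters passed in edgeR, and their median was -0.32, so these calls are not independent evidence.

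**Figure D3:**
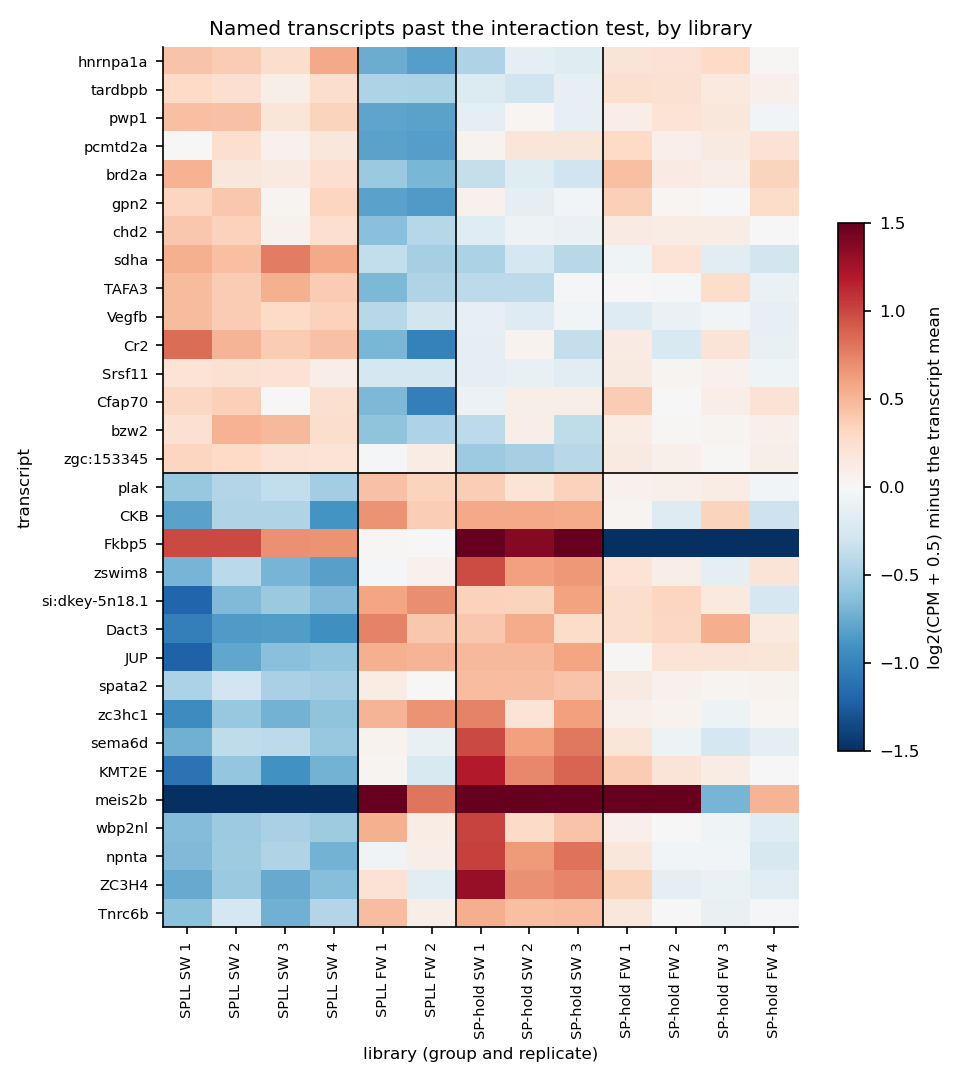
Level of the 31 named calls with reads in every group (rows) in the 13 libraries (columns, by group from SPLL SW to SP-hold FW), as log2(CPM + 0.5) minus the mean of the transcript over the libraries, with the colour scale ending at 1.5 on either side. The rows with a positive interaction are low in the 2 SPLL FW columns or high in SPLL SW, except zgc:153345, which is low in SP-hold SW, and the rows with a negative interaction are low in SPLL SW or high in SP-hold SW.

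Fkbp5, the co-chaperone of the glucocorticoid receptor that glucocorticoids induce, was the 1 named transcript with reads in every group that was sorted as lost. The transcript ENSSSAT00000150909 had 11.0, 11.0, 8.82 and 8.76 CPM in SPLL SW, against 5.36 and 5.27 in SPLL FW, and 35.9, 14.5 and 17.4 in SP-hold SW, against 0.959, 0.517, 0.383 and 1.16 in SP-hold FW. The interaction was -4.0 ± 0.58 (adjusted p = 0.0292), from effects of 0.90 in SPLL (adjusted p = 0.555) and 4.90 in SP-hold (adjusted p = 0.00218). Every SPLL SW library was still above both SPLL FW libraries, though this rise did not pass. SPLL FW was above every SP-hold FW library, so that the smaller response in SPLL started from a higher level. The 2 other transcripts of the gene had interactions of -2.06 (adjusted p = 0.245) and -0.61 (adjusted p = 0.797). Their seawater effects were 1.62 and 2.19 in SPLL, against 3.68 and 2.80 in SP-hold. A second gene, fkbp5 (ENSSSAT00000241265), had an interaction of -1.70 (adjusted p = 0.192), from effects of 1.38 in SPLL and 3.08 in SP-hold. Of 13 transcripts of the glucocorticoid response list, 1 passed downwards (0.0798% of all tested) and 11 had a negative interaction. The median was -0.59, from seawater effects of 0.73 in SPLL and 1.2 in SP-hold. Only 2 members lie outside the study's clusters, with a median of -0.24 and 0 at an unadjusted p under 0.05, so the list's direction is not independent evidence. TSC22D3, a glucocorticoid-induced leucine zipper protein, had an interaction of 0.07 ± 0.25 (adjusted p = 0.977).

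In the circadian clock list the median response had the same sign in both histories. None of its 12 transcripts passed for the interaction in edgeR or limma-voom (3 were negative at an unadjusted p under 0.05, and DESeq2 called 2 lower), and the median seawater effect was 0.74 in SPLL and 1.05 in SP-hold. Only 2 of its members lie outside the study's clusters, with median seawater effects of 0.09 in SPLL and 0.24 in SP-hold. CRY1, a repressor of the clock, had an interaction of -0.08 ± 0.31 (adjusted p = 0.976). BHLHE40, a transcriptional repressor of clock genes, had -0.73 ± 0.16 (adjusted p = 0.123) from effects of -0.06 in SPLL and 0.67 in SP-hold. srebf2, the regulator of cholesterol synthesis genes, had -0.75 ± 0.17 (adjusted p = 0.126), and the ubiquitin ligase HUWE1 had -0.53 ± 0.11 (adjusted p = 0.104). ppp1r1b, the dopamine-regulated phosphoprotein, missed the threshold by little at -0.98 ± 0.17 (adjusted p = 0.0584).

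The sole reversal with reads in every group was an unnamed transcript, ENSSSAT00000118484. It had 22.1, 17.8, 21.5 and 19.8 CPM in SPLL SW, against 5.46 and 7.97 in SPLL FW, and 7.41, 5.96 and 6.28 in SP-hold SW, against 12.0, 19.7, 19.7 and 18.3 in SP-hold FW. The effect was 1.60 in SPLL (adjusted p = 0.0293) and -1.41 in SP-hold (adjusted p = 0.0461), and the interaction was 3.00 ± 0.32 (adjusted p = 0.00675). The second reversal, ENSSSAT00000174387, was present or absent by group. It had 5.14, 4.64, 12.6 and 5.51 CPM in SPLL SW and no read in either SPLL FW library, and no read in the 3 SP-hold SW libraries, against 1.53, 4.22, 7.71 and 4.43 CPM in SP-hold FW. With empty groups set at a floor of 3 reads per library, the mean of SPLL SW was 47.6-fold the floor for SPLL FW. The mean of SP-hold FW was 38.3-fold the floor for SP-hold SW.

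Of the 17 losses, 10 were of this kind, with no read in SP-hold SW. ndst1b (chromosome 4, 37374658 to 37487206), a Golgi enzyme that modifies heparan sulfate chains, had 12.0, 12.5, 15.9 and 12.8 CPM in SPLL SW, 9.07 and 14.1 in SPLL FW, no read in the 3 SP-hold SW libraries, and 6.78, 11.6, 12.4 and 10.1 in SP-hold FW. The mean of SP-hold FW was 87.3-fold the floor for SP-hold SW, and the interaction had the lowest p of all (adjusted p = 0.000823). TFB2M, a factor that starts transcription of mitochondrial DNA, had 25.3, 22.4, 8.07 and 23.9 CPM in SPLL SW, 10.3 and 22.8 in SPLL FW, no read in SP-hold SW, and 6.27, 13.0, 24.0 and 20.2 in SP-hold FW (adjusted p = 0.0189). Here the mean of SP-hold FW was 136-fold the floor for SP-hold SW.

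The opposite, a transcript nearly gone from SPLL SW, was seen for meis2b (chromosome 15, 49200431 to 49219517), a homeobox transcription factor. It had 0.227, 0.717, 0 and 0.494 CPM in SPLL SW, against 60.5 and 18.4 in SPLL FW, and 142, 48.3 and 45.2 in SP-hold SW, against 51.1, 33.0, 6.18 and 14.9 in SP-hold FW. SPLL SW was below every other library, and the SP-hold libraries varied several-fold within a group. The interaction was -8.28 ± 1.32 (adjusted p = 0.0415). The unnamed ENSSSAT00000173586 had no read in SPLL SW, against 6.01 and 4.98 CPM in SPLL FW, and 15.1, 7.15 and 14.5 in SP-hold SW, against 3.39, 5.73, 7.42 and 4.43 in SP-hold FW (adjusted p = 0.0049).

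**Figure D4:**
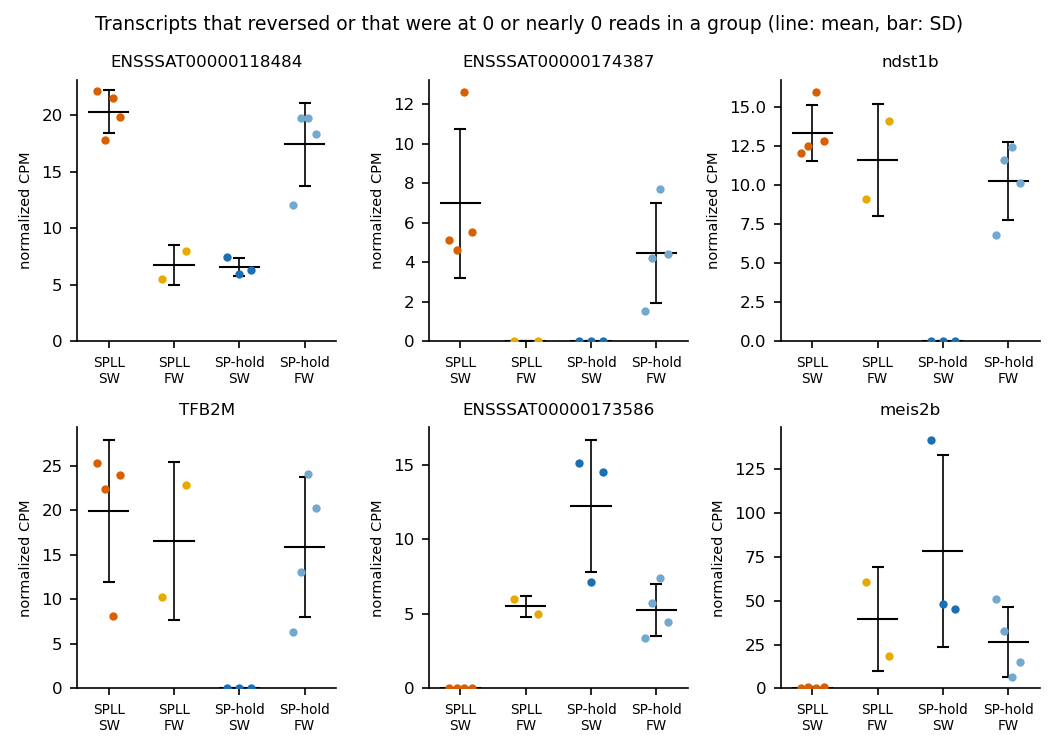
CPM in each library (vertical axis, linear from 0) by group, from SPLL SW to SP-hold FW, with lines for means and error bars for the SD, of the 2 reversed transcripts and of 4 transcripts that are empty or nearly empty in 1 group. ENSSSAT00000174387 is at 0 in SPLL FW and SP-hold SW, ndst1b and TFB2M are at 0 in SP-hold SW, ENSSSAT00000173586 is at 0 in SPLL SW, and meis2b has at most 0.717 CPM there.

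Reads for a transcript are estimates, since Salmon shares reads between transcripts of a gene and between gene copies, and a value of 0 in a whole group may be such an assignment. Leaving out each library in turn kept 42 of the 105 calls every time, 31 of the 47 with an empty group and 11 of the 58 others, and reversed none. A group at 0 stays there whichever library is left out, and limma-voom and version 4 split the calls the other way. limma-voom kept 3 of the 47 and 55 of the 58, and version 4 kept 6 of the 47 and 16 of the 58. ndst1b and TFB2M did not pass in limma-voom (adjusted p = 0.0769 for ndst1b and 0.354 for TFB2M). Nor did Fkbp5 (adjusted p = 0.14) and meis2b (adjusted p = 0.515), which had reads in every group. Of the named calls, ndst1b, TFB2M, hnrnpa1a, tardbpb, pwp1, pcmtd2a, brd2a and plak held without any 1 library. The call of gpn2 was lost when either SP-hold SW replicate 3 or SPLL SW replicate 1 was left out (adjusted p up to 0.0518), that of zswim8 without SPLL FW replicate 2, SPLL SW replicate 1 or SP-hold FW replicate 2 (up to 0.0674), and that of Fkbp5 without SPLL SW replicate 1 or 4 or SP-hold FW replicate 2 (up to 0.06). CKB, chd2, sdha and TAFA3 were lost without 4 libraries each, si:dkey-5n18.1 without 5, and the 17 remaining named calls without 8 to 12 of the 13. Leaving out SPLL SW replicate 3 cost no named call, against 22 of 33 lost without SPLL SW replicate 1. Dropping replicate 2 of SP-hold FW also cost 22 named calls. In SP-hold SW, 22 were lost with replicate 3 dropped and 21 with replicate 1 dropped. Erythrocyte markers were highest in SPLL SW, at 11.4% of TPM in replicate 3 and 9.63% in replicate 1. They made up 3.91% in replicate 2 of SP-hold FW. In SP-hold SW they made up 4.06% in replicate 3 and 2.8% in replicate 1. Their part in the calls was not tested.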

How the data were processed

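Stranded mRNA libraries of the saccus vasculosus were sequenced with single-end reads. The authors trimmed reads with Cutadapt, left out 3 libraries with low read counts, and deposited estimated counts and TPM per transcript from Salmon 1.1.0 on Ssal_v3.1, with a GC bias correction. Estimated counts of the 146780 transcripts were rounded to whole reads. The study's filter, a median CPM of 0.77 or more over the libraries, left 46384. A single quasi-likelihood model in edgeR 4.0.16 with a mean for each of the 4 groups and TMM factors (9 residual degrees of freedom, R 4.3.3) gave the interaction and the other contrasts, with Benjamini-Hochberg adjustment over all 46384 and a threshold of 0.05. CPM are TMM-scaled, and the SE is the log2 change over the square root of F.

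edgeR's version 3 method (the installed default, and that of the study's edgeR) was listed at first as an alternative. It became the reported method after its 105 calls and the 24 of the version 4 method had both been seen. DESeq2 1.42.0, limma 3.58.1 (voom with library quality weights), other scalings, other filters, a length offset, a replicate block and leaving out each library were alternatives. Scripts were tested on simulated data.

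Names come from the part of the study's supplementary tables that was at hand. It names 1275 transcripts, 407 only by a zebrafish or mouse match. The text names the 10 lowest interaction p-values, up to 5 calls per response pattern and direction, up to 4 members per list by lowest p, genes that the study names, and the 2 lowest unnamed transcripts per direction. Every further named call and the unnamed transcripts other than these were added after the data were seen. Positions are RefSeq genes of the same assembly, found for 40 of the 41 calls that the tables place. A group without reads is set at a floor of 3 reads per library, which covers counting error only. Folds over this floor use the mean of the other group and leave out the spread between its libraries. All members and lists were chosen with earlier results of these data known. No sequences are printed.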

Additional observations from a re-analysis of the deposited data

Results flagged for a closer look

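The seawater response differed between SPLL and SP-hold for 105 transcripts by the interaction test. Among 76 groups of 4 libraries that were checked for 1 library far from the rest, 5 stood out, and chance gives about 1 in 20. TFB2M had 8.07 CPM in SPLL SW replicate 3, against 22.4 to 25.3 in the other SPLL SW libraries. chd2 had 77.2 CPM in the lowest SP-hold FW library, against 83.0 to 83.8. JUP had 6.52 CPM in the lowest SP-hold FW library, against 7.39 to 7.50. ZC3H4 had 18.7 CPM in the highest SP-hold FW library, against 13.2 to 13.8. Transcripts with reads numbered 54196 in SPLL SW replicate 3, the lowest of its group.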

How the results depend on the processing

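No named call and no call of the 105 without 1 library changed direction under any setting run on it. The interaction count, 105 as reported, was 24 in edgeR version 4 (22 shared), 59 with no composition factor (49 shared, 81.4% positive), 44 with no filter on low counts, 58 with filterByExpr, 65 with a length offset (75.4% positive), 2092 in DESeq2, 505 in limma-voom with library quality weights (48.1% positive), 25 at an FDR of 0.01, 212 at an FDR of 0.1 and 58 over transcripts with reads in every group (the last chosen after seeing the data). RLE size factors gave 99. Version 3 was first listed as the alternative, and it took the place of version 4 as the reported method after both counts were seen. With no composition factor the median interaction of all tested transcripts was 0.125, with no filter 0.20 and with filterByExpr 0.108, against 0.043 as reported, and the cause of the lost calls was not tested. The seawater effect in SPLL passed for 47 with no composition factor, 31 with no filter, 77 with filterByExpr, 2287 in DESeq2, 1225 in limma-voom and 78 in version 4. That in SP-hold passed for 1369 in DESeq2 and 15 in limma-voom. SPLL against SP-hold in SW passed for 359 with no composition factor, 197 with no filter, 494 with filterByExpr, 317 with the length offset, 5483 in DESeq2 and 2657 in limma-voom, and in FW for 24, 15, 1505 (DESeq2), 127 (limma-voom) and 0 in version 4. Reversed, gained and lost calls, and all calls with at least 1 seawater effect past the threshold (83 as reported), numbered 71, 1088, 514 and 1676 in DESeq2, 0, 341, 6 and 347 in limma-voom, and 1, 13, 5 and 19 in version 4. With no composition factor 1 was reversed, 30 gained and 45 had such an effect, with no filter 1, 21 and 35, and with filterByExpr 32 were gained and 47 had one. With an unadjusted p for each seawater effect, 43 were reversed. Leaving out 1 library gave 62 to 299 interaction calls, 84 to 511 for seawater in SPLL, 32 to 79 in SP-hold, 138 to 1341 for photoperiod in SW, 34 to 274 in FW, and 0 to 11 reversed, 36 to 255 gained, 14 to 51 lost and 55 to 278 calls with a seawater effect. The 138 came without SP-hold SW replicate 1. Same-numbered libraries of different groups correlated at -0.051 to 0.121 (median 0.0145), with 1 of 16 pairs over 0.1. Differently numbered ones correlated at -0.136 to 0.092 (median 0.0015), with 0 of 46 over 0.1. The values of the 2 SPLL FW libraries mirror each other by construction, so such a check cannot exclude that replicate numbers pair the libraries. With the replicate block 3 transcripts passed for the interaction, with ndst1b the only named one, 1 for seawater in SPLL, 4 in SP-hold, 157 for photoperiod in SW and 2 in FW, with 0 reversed, 1 gained and 2 lost, 3 with a seawater effect. Of the 33 named calls, 33 were kept in DESeq2, 30 with RLE, 29 in limma-voom, 14 with filterByExpr, 14 with the length offset, 11 in version 4, 6 with no filter and 3 with no composition factor. With 2 SPLL FW libraries and 9 residual degrees of freedom, changes of smaller size may be missed.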

Other observations

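Unnamed transcripts held some of the highest levels among the calls. Those described in this paragraph belong to clusters that the study chose on these libraries, so their calls are no independent evidence. ENSSSAT00000228639 (chromosome 1), the most abundant call, had 873, 885, 686 and 837 CPM in SPLL SW, against 280 and 323 in SPLL FW, and 482, 538 and 497 in SP-hold SW, against 641, 649, 604 and 558 in SP-hold FW. SPLL FW was lowest and SPLL SW highest, and the interaction was 1.72 ± 0.18 (edgeR, adjusted p = 0.00607). ENSSSAT00000107140 on chromosome 9, which overlaps the RefSeq gene rsrp1 for an arginine- and serine-rich protein, had 114, 118, 112 and 102 CPM in SPLL SW, against 61.2 and 58.1 in SPLL FW, and 104, 108 and 102 in SP-hold SW, against 105, 98.9, 112 and 90.8 in SP-hold FW (interaction 0.86, adjusted p = 0.0327). Only SPLL FW stood apart there. ENSSSAT00000178305, described in the study's tables as a glypican, a heparan sulfate proteoglycan of the cell surface, had 1.55, 0.943, 1.45 and 1.28 CPM in SPLL SW, against 5.01 and 5.70 in SPLL FW, and 5.49, 5.74 and 9.27 in SP-hold SW, against 4.92, 4.91, 4.74 and 3.11 in SP-hold FW (interaction -2.66, adjusted p = 0.0415).

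Both unnamed losses with reads in every group had SP-hold SW apart. ENSSSAT00000180919 had 1.55, 6.64, 1.94 and 1.60 CPM in SPLL SW, against 17.6 and 4.65 in SPLL FW, and 292, 65.3 and 80.5 in SP-hold SW, against 1.92, 4.01, 3.45 and 3.59 in SP-hold FW (interaction -7.40 ± 1.06, adjusted p = 0.0286). ENSSSAT00000233776 had 31.7, 43.2, 54.5 and 25.3 CPM in SPLL SW, against 16.9 and 25.2 in SPLL FW, and 6.74, 7.23 and 11.9 in SP-hold SW, against 33.3, 34.6, 38.5 and 33.5 in SP-hold FW (interaction 2.90, adjusted p = 0.036). The first call was lost without any 1 of 5 libraries and the second without any 1 of 8.

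Among ion and water transport transcripts, 0 of 31 passed in edgeR, with a median interaction of -0.14. At an unadjusted p under 0.05, 3 were positive and 6 negative, against 6.67% and 5.03% of all tested. DESeq2 called 2 higher and 3 lower, and limma-voom 1 and 2. The 22 members outside the study's clusters had a median of -0.12, with 1 positive and 3 negative at that p. Among synapse and neuropeptide transcripts, 0 of 20 passed in edgeR (DESeq2 called 1 higher and 5 lower, limma-voom 4 lower). At an unadjusted p under 0.05, 3 were positive and 7 negative. The 9 members outside the study's clusters had a median interaction of 0.06, with 1 positive and 0 negative at that p. Polyamine and nucleotide transcripts had a positive interaction in 15 of 16, with a median of 0.39 and 0 calls in edgeR (4 positive at an unadjusted p under 0.05, while DESeq2 called 3 and limma-voom 1). Of the transcripts named for abundance outside the study's clusters, 656 of 988 were positive, with a median of 0.161. The 11 polyamine and nucleotide members outside the clusters had a median of 0.32, and 0 of them had an unadjusted p under 0.05.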
